A study of Mus musculus with 4 samples.

Results

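The noncoding RNAs of Th2 cells were examined here as the RefSeq transcripts whose accession begins with NR_, the class that RefSeq reserves for RNAs without an annotated protein. The array carried 612 probes for 532 such transcripts, and 230 of them (43.2%) had a probe that the scanner software marked as well above background on all 4 arrays. The brightest such probe stood for each transcript. The transcripts were chosen by the background mark and selected on measured signals of these same arrays, so the differences are given as descriptions. Of the 230 transcripts, 205 matched 199 genes in the RefSeq gene table for GRCm38.p6, and 25 matched none and keep their accession as a name. The table lists 129 of them as lncRNA, 57 as transcribed pseudogenes, 4 as snoRNAs, 2 as antisense RNAs and 1 each as rRNA, telomerase RNA and the RNA of RNase MRP. The remaining 10 belong to genes that also have a coding transcript, so that the noncoding label held for 195 of the 205 that matched.

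The cells were CD4 T cells from the spleen of female C57BL/6J mice, cultured for 2 days with immobilised anti-TCR-β (3 µg/ml) and anti-CD28 (1 µg/ml) in the presence of IL-4 (10 ng/ml) plus IL-2 (2.5 ng/ml), and then for 3 days with both cytokines alone. The groups were control resting, SH-2251 resting, control restimulated and SH-2251 restimulated, where restimulation was 4 h on anti-TCR-β and SH-2251 is a thioamide-related small compound. The labels give SH-2251 as 1 µM in the first phase and 1 mM in the second, whereas the study's text names a nanomolar dose, naïve starting cells and an added anti-IFN-γ antibody. Each group was 1 single-dye (Cy3) Agilent array made from 500 ng of total RNA, all on 1 slide and in 1 scan, so no replicate error exists and no test was made.

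Values below are log2 processed intensities minus the 75th percentile of that array, so 0 is the level of a probe at that percentile. A difference is given with the technical SD that the scanner software's error estimate for the spots implies, and it does not include variation between cultures. A transcript is called changed where the difference reached 2-fold, that is 1 on the log2 scale. The 75th percentile of intensity was between 499 and 614 on the 4 arrays, 56.0% to 56.6% of probes were well above background, and no spot was saturated. All 5 Th2 and T cell markers (Cd3e, Cd4, Gata3, Il4, Il13) were above background on every array, and 9 of the 16 markers of other cells on the array were too. Over all markers of each kind, the summed level on the control resting, SH-2251 resting, control restimulated and SH-2251 restimulated arrays was 2.10, 2.30, 1.82 and 2.45 for B cells, -3.53, -2.07, -2.82 and -1.85 for CD8 T cells, 6.01, 4.24, 6.57 and 4.85 for NK cells (almost all from Gzma, a granzyme gene that activated T cells also express), 1.36, 1.25, 1.47 and 1.55 for myeloid cells, and -1.55, -0.51, -2.21 and -0.68 for red cells. Pax5, Ncr1, Klrb1c, Lyz2, Itgam and S100a8 were not above background on any array. The part of other cells in the differences below was not tested, and fewer cells of a type cannot be told apart from less RNA per cell.

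Noncoding transcripts act in several ways. Long noncoding RNAs such as Xist and Malat1 work as RNA in the nucleus, at chromatin or in nuclear bodies. Host genes of snoRNAs and microRNAs are transcribed as long precursors whose introns or exons hold the small RNA, and many code for nothing else. snoRNAs guide chemical modification of ribosomal RNA, while antisense transcripts and divergent transcripts start beside a coding gene on the opposite strand. The labelling kit primes from poly(A) tails, which mature snoRNAs, Rmrp and Terc lack, so whether a probe for such an RNA read the mature RNA or a longer transcript was not tested.

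The sequences that bear on the results are those of the microRNAs inside 2 host genes and the start regions of the 6 snoRNA host genes that could be measured. Mir22hg on chromosome 11, a host gene that was higher after restimulation, holds Mir22 on the plus strand (RefSeq, GRCm38.p6, 5p arm at chr11:75463734-75463755 and 3p arm at chr11:75463772-75463793), and the mature sequences follow with the seed, bases 2 to 8, in capitals. The 5p and 3p arms have different seeds.
mmu-miR-22-5p: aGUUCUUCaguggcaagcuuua
mmu-miR-22-3p: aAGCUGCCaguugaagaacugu
Dleu2 on chromosome 14, whose level moved little, holds Mir15a and Mir16-1 on the minus strand, and their 5p arms (chr14:61632075-61632096 and chr14:61631936-61631957) share 1 seed.
mmu-miR-15a-5p: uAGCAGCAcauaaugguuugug
mmu-miR-16-5p: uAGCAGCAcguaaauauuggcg
The arrays measured the host transcripts and not these small RNAs.

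The start regions of the snoRNA host genes are shown because this group holds Snhg8, one of the transcripts with the largest restimulation differences. Each runs from 50 bases before the start site to 50 bases after it, on the gene's own strand, from the RefSeq promoter table for GRCm38.p6. Capitals mark the letters TATAAA or their reverse complement, a TATA-box core. The windows are chr3:123508287-123508386 for Snhg8, chr2:26640195-26640294 for Snhg7, chr2:158361473-158361572 for the first of 2 listed starts of Snhg17 and chr4:132353637-132353736 for Snhg3, all on the minus strand, and chr11:116671610-116671709 for Snhg16 and chr11:117076733-117076832 for Snhg20 on the plus strand.
Snhg8: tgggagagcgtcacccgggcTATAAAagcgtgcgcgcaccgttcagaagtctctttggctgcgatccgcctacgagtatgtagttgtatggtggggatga
Snhg7: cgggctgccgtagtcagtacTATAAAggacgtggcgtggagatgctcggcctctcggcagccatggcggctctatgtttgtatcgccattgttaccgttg
Snhg17: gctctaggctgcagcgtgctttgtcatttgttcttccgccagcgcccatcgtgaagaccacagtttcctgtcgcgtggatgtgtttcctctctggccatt
Snhg3: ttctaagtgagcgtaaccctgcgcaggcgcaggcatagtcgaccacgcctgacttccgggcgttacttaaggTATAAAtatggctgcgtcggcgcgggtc
Snhg16: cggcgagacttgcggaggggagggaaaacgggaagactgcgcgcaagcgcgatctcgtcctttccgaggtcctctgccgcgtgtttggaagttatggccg
Snhg20: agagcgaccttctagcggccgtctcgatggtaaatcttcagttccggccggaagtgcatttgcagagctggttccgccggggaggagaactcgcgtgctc
In Snhg8 and Snhg7 the TATAAA core began 30 bases before the start, and the transcript began with C followed by at least 4 further pyrimidines (6 pyrimidines from the start in Snhg8 and 5 in Snhg7). Among all 32851 promoters of the table, 3.50% held TATAAA on either strand in the 50 bases before the start, and 2.51% began with C and 4 pyrimidines. In Snhg3 the TATAAA letters lay 23 bases after the start, and the windows of Snhg16, Snhg17 and Snhg20 held none. The second listed start of Snhg17 began with 6 pyrimidines, the first of them a T.

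The first question was which noncoding RNAs differed between Th2 cells generated with SH-2251 and control Th2 cells. Few did. In resting cells 3 of the 230 transcripts were at least 2-fold lower with SH-2251 and 2 were higher, beside 1.91% and 1.52% of all 16396 transcripts above background on all 4 arrays. In restimulated cells 4 were lower and 0 were higher, beside 1.67% and 1.98% of all transcripts. Centring the arrays on their median, or on the 75th percentile of the probes above background on all 4, turned the restimulated count into 2 lower and 1 higher. With normexp background correction the resting count was 0 lower and 6 higher. For these alternatives the percentage of all transcripts changed was not counted. The share of noncoding transcripts changed either way was 2.17% in resting cells and 1.74% in restimulated cells, against 3.43% and 3.65% of all transcripts. In each state 112 of the 230 differences were smaller than their own technical SD, whose median was 0.207.

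E030011O05Rik, a lncRNA, showed the largest SH-2251 difference of the 230 transcripts in both states. Its log2 signal was -0.60 on the control resting array and -2.62 on the SH-2251 resting array, and -0.89 on the control restimulated array and -3.05 on the SH-2251 restimulated array. Both SH-2251 values lay below both control values. The difference was -2.02 ± 0.22 in resting cells (technical SD), a 4.04-fold lower level, and -2.16 ± 0.23 in restimulated cells, a 4.48-fold lower level. The gene lies just ahead of Zbtb38, a zinc finger protein that binds methylated DNA, on the same strand, and its end overlaps the start of Zbtb38 by 101 bases in the GRCm38.p6 annotation. The Zbtb38 mRNA probe read -0.25, -0.997, -0.34 and -1.07 on the control resting, SH-2251 resting, control restimulated and SH-2251 restimulated arrays, so that its SH-2251 difference was -0.75 in resting and -0.74 in restimulated cells. With normexp background correction the resting difference of E030011O05Rik was -0.77 and the restimulated one -1.37.

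Speer6-ps1, a transcribed pseudogene of the Speer family of spermatogenesis-associated genes, was the other transcript lower in both states. It read -3.03 in control resting cells, -4.12 in SH-2251 resting cells, -0.35 in control restimulated cells and -1.45 in SH-2251 restimulated cells. The SH-2251 difference was -1.09 ± 0.32 in resting and -1.09 ± 0.21 in restimulated cells. These 2 transcripts stand beside 0.976% of all transcripts that were 2-fold lower in both states, and no noncoding transcript was 2-fold higher in both states, beside 0.951%. The resting difference of Speer6-ps1 turned to 0.56 with normexp background correction, and to -0.46 when uneven and outlier spots were left out as well. Pseudogene probes can share sequence with related genes, so the source of this signal is uncertain.

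The other lower transcripts were past 2-fold in 1 state and short of it in the other. The lncRNA 4930581F22Rik read -0.45 and -0.43 in control cells, against -1.49 and -1.37 with SH-2251, resting and restimulated in that order, for differences of -1.05 ± 0.21 and -0.94 ± 0.21. It starts on the opposite strand from St3gal4, a sialyltransferase gene, with 137 bases in common. St3gal4 mRNA differed by -0.72 and -0.60, and Dcps, a decapping enzyme gene that it also overlaps, by -0.39 and -0.47. The lncRNA 1700001L05Rik read -1.19 and -1.79 in control cells, against -2.16 and -2.81 with SH-2251, for differences of -0.96 ± 0.21 and -1.02 ± 0.22. Its second probe gave -1.22 and -0.95. The lncRNA 5033406O09Rik, at -3.40 and -3.65 in control cells, against -3.92 and -4.66 with SH-2251, differed by -0.51 ± 0.29 and -1.01 ± 0.38 and had the lowest single value of any transcript that was kept. With normexp background correction the 2-fold calls of all 3 were lost, at -0.60 for 4930581F22Rik in resting cells and -0.73 for 1700001L05Rik and -0.45 for 5033406O09Rik in restimulated cells. Across the 10 alternatives run these calls held in 7, 5 and 5. Some of these runs could barely alter a transcript that passed on all 4 arrays. Using the authors' values, keeping outlier spots or dropping the filter on dim probes each left all 49 named differences of at least 2-fold past that limit. The tally therefore overstates how well the calls held.

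Only E030024N20Rik and NR_026976 were at least 2-fold higher with SH-2251, both in resting cells. E030024N20Rik, a transcribed pseudogene inside Gnaq, the gene of a G protein alpha subunit, read -3.57 and -3.16 in control cells, against -2.50 and -2.52 with SH-2251. Its differences were 1.07 ± 0.27 in resting and 0.65 ± 0.25 in restimulated cells, and those of Gnaq mRNA were 0.83 and 0.95. NR_026976 read -2.66 and -1.96 in control cells, against -1.62 and -0.998 with SH-2251, differences of 1.04 ± 0.23 and 0.96 ± 0.21. For both transcripts, each SH-2251 value lay above the control value of the same state. Both calls were lost with normexp when uneven and outlier spots were left out, at 0.56 for E030024N20Rik and 0.65 for NR_026976.

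**Figure D1:**
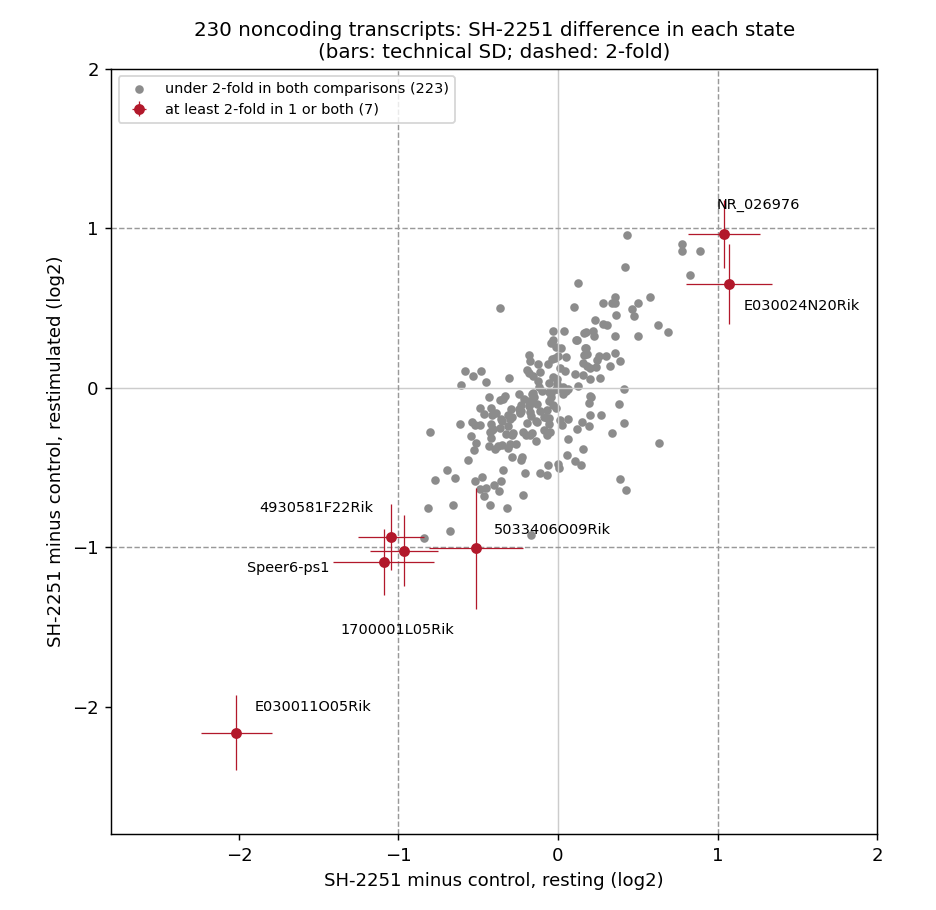
SH-2251 minus control difference of each of the 230 noncoding transcripts on the log2 scale, in resting cells on the horizontal axis and in restimulated cells on the vertical axis. The 7 transcripts at least 2-fold changed in 1 or both states are in red with technical SD bars, E030011O05Rik stands alone at the lower left, and the other 223 lie inside the dashed 2-fold lines.

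**Figure D2:**
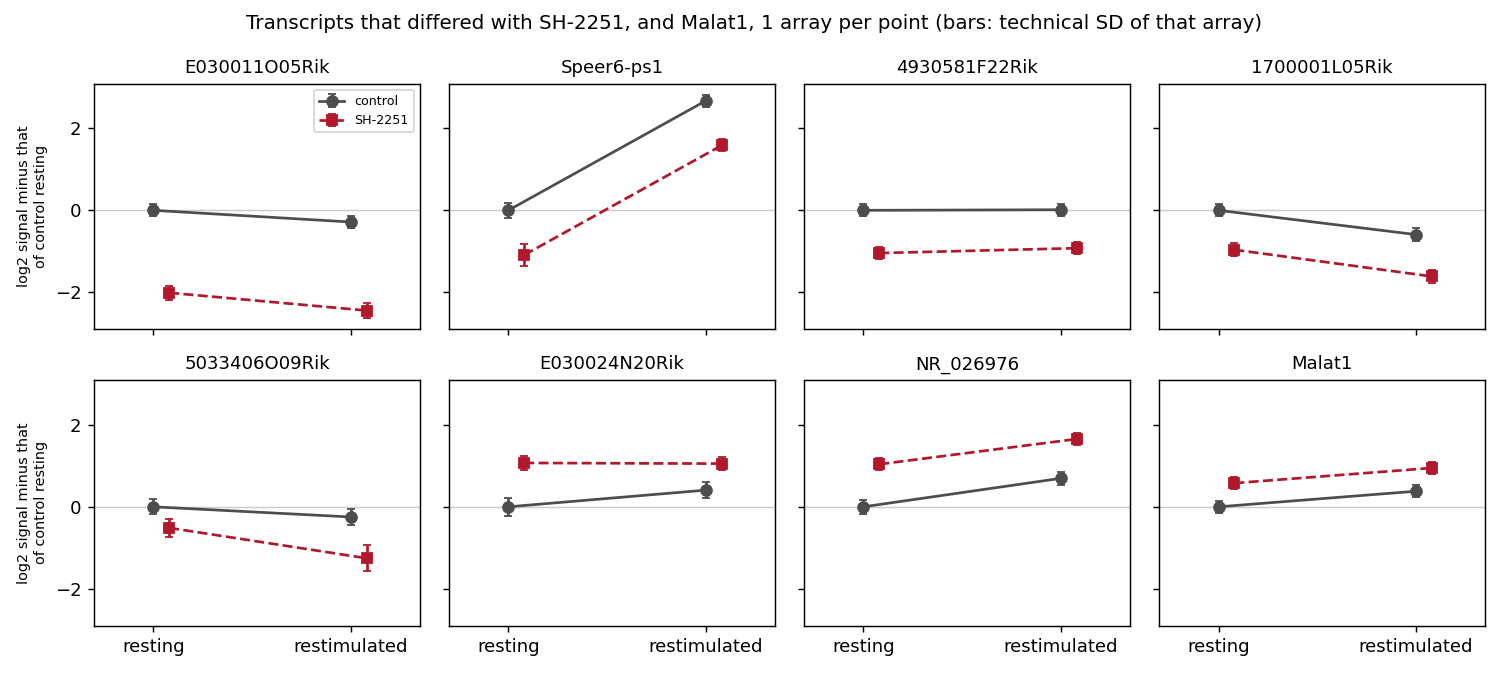
Log2 signal of the 7 transcripts past 2-fold and of Malat1 on each of the 4 arrays, minus the control resting value of the same transcript, with bars for the technical SD of that array. In each state the SH-2251 squares lie below the control circles in the 5 panels of lower transcripts and above them in the other 3.

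Across the 230 transcripts the resting and restimulated SH-2251 differences, which come from separate arrays on the same slide, correlated with r = 0.740 and rho = 0.642, and 174 had the same sign. The mRNA transcripts gave r = 0.770 and rho = 0.686, with the same sign in 9055 of 11765. Malat1, a nuclear speckle RNA, was among those that moved alike at less than 2-fold. Its signal was 2.98 and 3.37 in control cells, against 3.56 and 3.93 with SH-2251, so the difference was 0.58 ± 0.20 in resting and 0.57 ± 0.20 in restimulated cells. Its 4 probes gave between 0.45 and 0.73 in resting cells and between 0.57 and 0.63 in restimulated cells. Neat1, the scaffold of paraspeckles and a neighbour of Malat1, differed by 0.39 ± 0.20 and 0.17 ± 0.20, and Oip5os1 by 0.20 ± 0.20 and 0.05 ± 0.20. By brightest probe, all 5 passing transcripts of the list of other named lncRNAs were above 0 in both states. They were Malat1, Neat1, Oip5os1 and 2 of Tug1. A second probe of 1 of the Tug1 transcripts was below 0, at -0.28 in resting and -0.03 in restimulated cells. The list's median difference was 0.20 and 0.30, beside -0.04 and -0.04 over all transcripts. The sixth transcript of that list on the array, Crnde, did not pass.

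The X inactivation transcripts behaved less evenly. Xist, which coats the inactive X chromosome, has 2 RefSeq transcripts here. The first read 4.43, 4.71, 4.38 and 4.91 on the control resting, SH-2251 resting, control restimulated and SH-2251 restimulated arrays, a difference of 0.28 ± 0.20 and 0.53 ± 0.20 with SH-2251. The other (NR_001570) read -0.96, -0.84, -0.28 and 0.02, with SH-2251 differences of 0.11 ± 0.21 and 0.30 ± 0.20. Tsix, the antisense partner of Xist, differed by 0.22 ± 0.21 and 0.32 ± 0.21. Ftx, another lncRNA of the X inactivation centre, read -3.70, -3.86, -3.20 and -4.13, with SH-2251 differences of -0.17 ± 0.31 before and -0.92 ± 0.31 after restimulation. None reached 2-fold.

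The difference between the 2 states' SH-2251 differences reached 2-fold for 1 transcript, beside 0.579% of all transcripts that were lower and 0.787% that were higher in this way. The lncRNA 4921531C22Rik read -4.05 and -3.62 in resting control and SH-2251 cells and -3.83 and -4.47 in restimulated control and SH-2251 cells, which gave 0.42 ± 0.31, then -0.64 ± 0.36 and a difference between them of -1.07 ± 0.48. This was not tested. The next in size were Gm3002 (-0.98 ± 0.31), 4930471G03Rik (-0.96 ± 0.50), 4931406H21Rik (0.86 ± 0.32), Ftx (-0.76 ± 0.44) and Snora69 (0.68 ± 0.30). The probes of Gm3002 were 0.98 apart in their resting SH-2251 difference, the widest such gap among the 25 transcripts with several probes, for which the median gap was 0.22.

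The next question was how noncoding RNAs differed between resting Th2 cells and cells restimulated through the T cell receptor. With restimulation of control cells, 11 transcripts were at least 2-fold lower and 14 higher, beside 6.09% and 6.78% of all transcripts. With restimulation of SH-2251 cells, 10 were lower and 16 higher, beside 5.81% and 7.13%. With normexp background correction the control count was 4 lower and 9 higher and the SH-2251 count 36 lower and 11 higher, the latter 4 lower and 10 higher when uneven and outlier spots were left out as well. The shares of all transcripts were not counted under normexp, which moved the median of all transcripts by -0.17 in the SH-2251 comparison. Without normexp, the shares changed either way, 10.9% and 11.3%, stood beside 12.9% of all transcripts in each case. Under both treatments, 8 transcripts were lower (3.48%, beside 4.09% of all transcripts) and 10 were higher (4.35%, beside 5.15%). The 2 restimulation differences use separate arrays and correlated over the 230 transcripts with r = 0.911 and rho = 0.877, and 190 had the same sign. For the mRNA transcripts r was 0.918 and rho 0.897, with the same sign in 10189 of 11765.

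**Figure D3:**
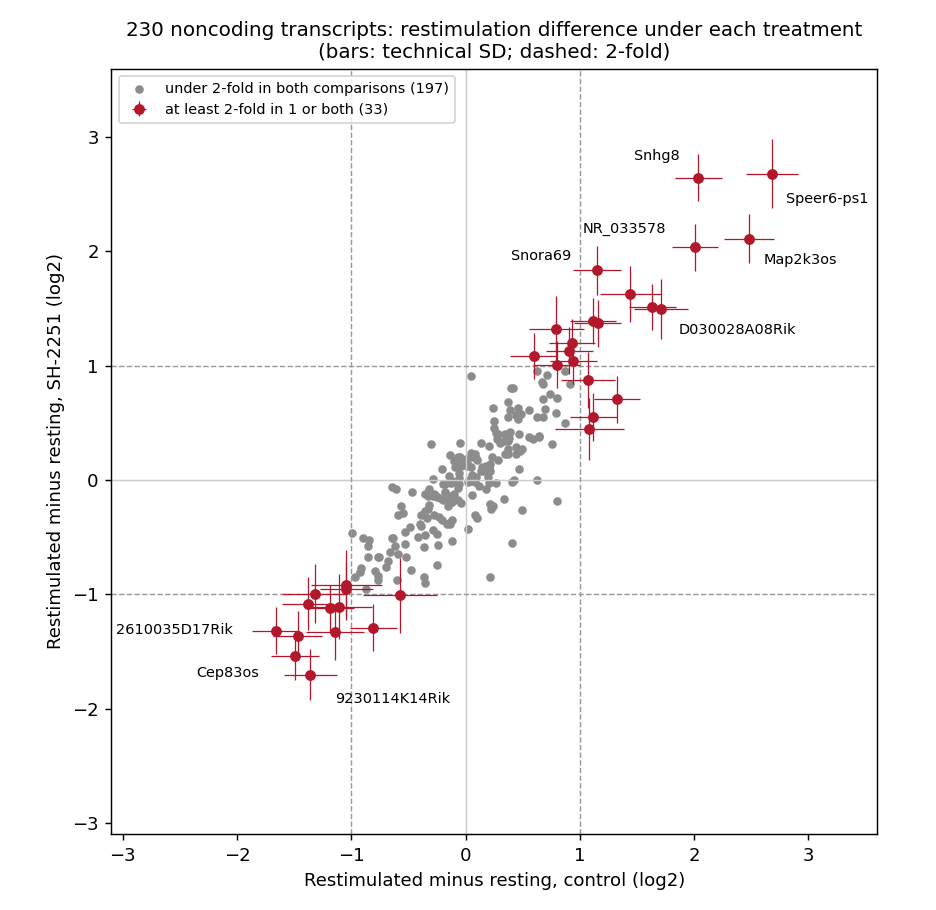
Restimulated minus resting difference of each of the 230 noncoding transcripts on the log2 scale, in control cells on the horizontal axis and in SH-2251 cells on the vertical axis. The 33 transcripts at least 2-fold changed in 1 or both comparisons are in red with technical SD bars, from 2610035D17Rik, Cep83os and 9230114K14Rik at the lower left to Speer6-ps1, Map2k3os and Snhg8 at the upper right.

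Among the host genes of snoRNAs, Snhg8 was at least 2-fold higher after restimulation under both treatments, and Snhg17 and Snhg7 in SH-2251 cells. Of the 7 on the array, 6 passed, and all 6 had a difference above 0 under both treatments (5 of 6 in control cells under 3 other scalings, where Snhg20 was below 0), with 1 of 6 past 2-fold in control cells and 3 of 6 in SH-2251 cells, beside 6.78% and 7.13% of all transcripts that were 2-fold higher. The median difference of the 6 was 0.66 in control cells and 0.97 in SH-2251 cells, beside -0.02 and -0.0016 over all transcripts. Snhg18 did not pass on all 4 arrays. The group was named after earlier results of these data were known, so these counts are a description.

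Snhg8 read 0.63 on the control resting array, 0.09 on the SH-2251 resting array, 2.66 on the control restimulated array and 2.74 on the SH-2251 restimulated array. Both restimulated values lay above both resting values, by 2.04 ± 0.20 (4.10-fold) in control and 2.64 ± 0.20 (6.25-fold) in SH-2251 cells. Its second probe gave 1.82 and 2.31. Snhg17 read 3.19, 2.85, 4.12 and 4.05 in the same order, differences of 0.93 ± 0.20 and 1.20 ± 0.20. Snhg7 read 0.58, 0.60, 1.48 and 1.73, differences of 0.91 ± 0.20 and 1.13 ± 0.20. Snhg8 and Snhg7 are the host genes whose printed start regions hold the TATAAA core before the start.

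The remaining host genes moved less. Snhg3 read 3.63, 3.01, 4.04 and 3.82, with differences of 0.41 ± 0.20 and 0.80 ± 0.20. Snhg16 differed by 0.25 ± 0.20 and 0.45 ± 0.20, and Snhg20 by 0.02 ± 0.20 and 0.13 ± 0.20. The Snhg20 value in control cells went below 0 when arrays were centred on the median, scaled on the probes above background or quantile normalised. In resting cells, Snhg3 and Snhg8 were lower with SH-2251 by -0.62 ± 0.20 and -0.53 ± 0.20, whereas in restimulated cells the differences were -0.23 ± 0.20 and 0.07 ± 0.20.

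**Figure D4:**
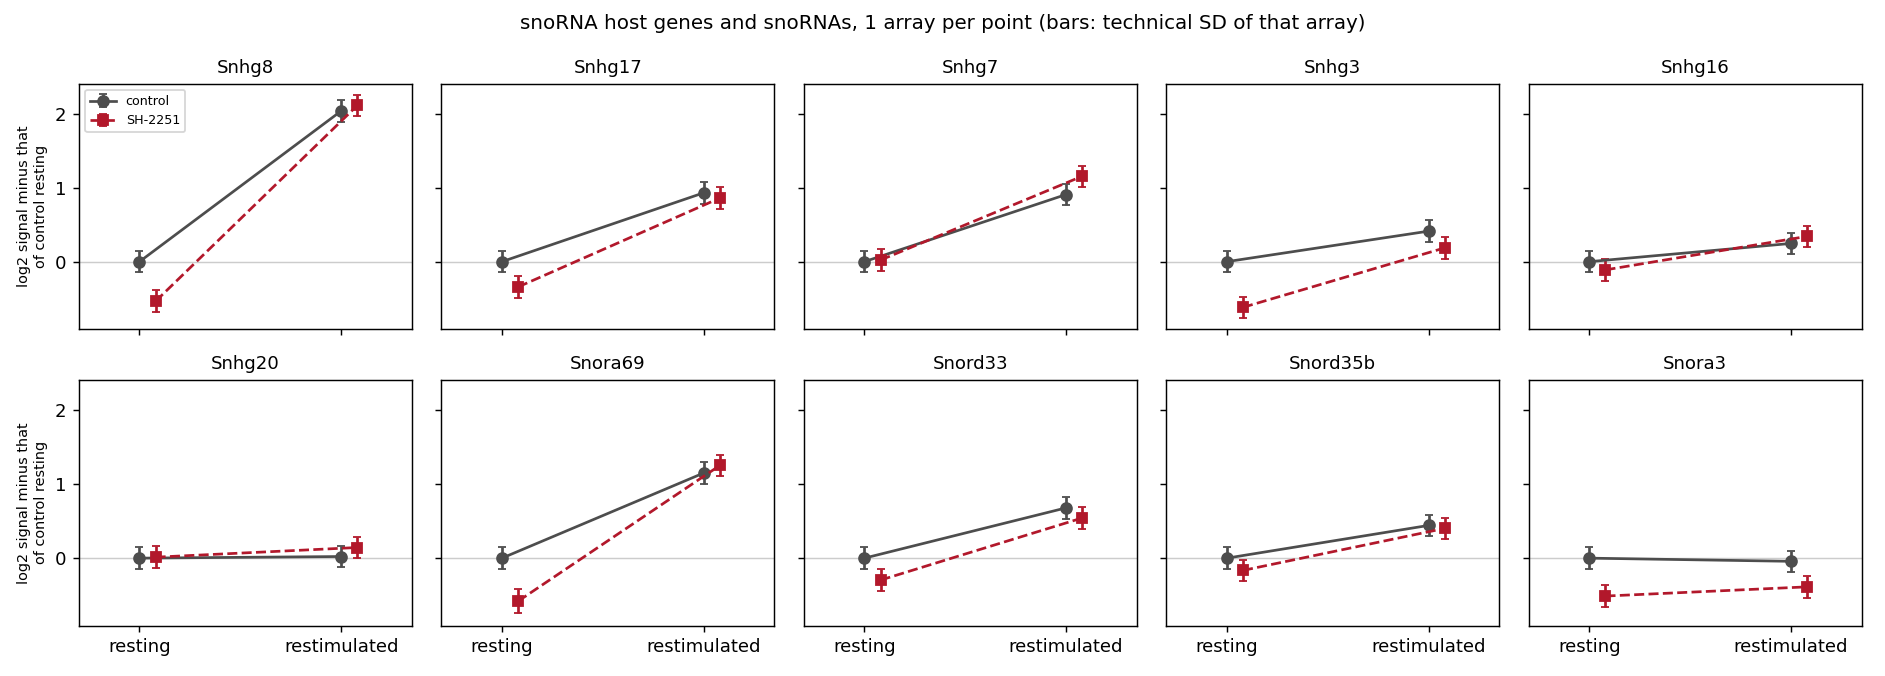
Log2 signal of the 6 snoRNA host genes and the 4 snoRNAs on each of the 4 arrays, minus the control resting value of the same transcript, with bars for the technical SD of that array. Lines join resting and restimulated arrays of 1 treatment, and they climb most for Snhg8 and Snora69 and stay nearly flat for Snhg20 and Snora3.

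The 4 snoRNAs of the array lie inside introns of other genes, and for 2 of them the probe and the enclosing mRNA differed in size of change. Snora69, a box H/ACA RNA of the kind that guides pseudouridylation, read -1.80, -2.38, -0.65 and -0.55 on the control resting, SH-2251 resting, control restimulated and SH-2251 restimulated arrays. It was 1.15 ± 0.21 higher after restimulation in control cells and 1.83 ± 0.22 higher in SH-2251 cells. With normexp background correction these differences were 0.90 and 0.80, both below 2-fold. Snora69 lies inside Rpl39, a ribosomal protein gene, whose mRNA differed by 0.07 and 0.13. Snord33, a box C/D RNA of the kind that guides ribose methylation, was 0.68 ± 0.20 and 0.84 ± 0.21 higher, while the mRNA of its host Rpl13a differed by 0.07 and 0.10.

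Snord35b, another box C/D RNA, was 0.44 ± 0.21 and 0.57 ± 0.21 higher. Snora3, inside Rpl27a, differed by -0.04 ± 0.20 and 0.12 ± 0.20, near the -0.10 and 0.08 of its host mRNA. Rmrp and Terc, the RNA parts of RNase MRP and of telomerase, differed by at most 0.08 with restimulation. With SH-2251 all 6 structured RNAs were below 0 in resting cells, with a median of -0.29, and 5 of 6 in restimulated cells, with a median of -0.22. The medians over all transcripts were -0.04 and -0.04. In resting cells Snord35b (-0.17 ± 0.21) and Terc (-0.20 ± 0.21) lay within their technical SD, and the others lay outside theirs. None reached 2-fold.

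Mir22hg, the host of the miR-22 arms printed above, read -0.40, -0.44, 0.76 and 0.94 and was 1.16 ± 0.20 and 1.37 ± 0.20 higher after restimulation of control and SH-2251 cells. Dleu2, the host of miR-15a and miR-16, read -2.93, -3.23, -3.25 and -3.44 and differed by -0.32 ± 0.26 and -0.22 ± 0.27. Mirt1, which entered the same list only through its name and is not a microRNA host, differed by -0.90 ± 0.20 and -0.51 ± 0.20. The list's other transcripts, Mir100hg, Mir124-2hg, Mir9-3hg and Mir99ahg, did not pass. Of the imprinted noncoding RNAs, Kcnq1ot1 passed and was 0.92 ± 0.20 and 0.84 ± 0.20 higher, with its 4 probes between 0.28 and 1.09 in control cells, while Airn, Meg3 and Rian did not pass.

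Map2k3os, a lncRNA that starts 187 bases from Map2k3 on the opposite strand, was among the transcripts most increased by restimulation. It read -2.72 and -2.52 in resting control and SH-2251 cells and -0.24 and -0.41 in restimulated ones, so both restimulated values lay above both resting values. The differences were 2.48 ± 0.22 (5.59-fold) and 2.11 ± 0.22 (4.32-fold). The mRNA of Map2k3, a kinase of the p38 MAP kinase pathway, read 0.87, 1.14, 2.68 and 2.95 and was 1.82 and 1.80 higher.

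Cep83os moved the other way from its partner. Its start is 177 bases from that of Cep83, a gene for a centriole appendage protein, again on the opposite strand. Cep83os read -0.42, -0.24, -1.91 and -1.77 on the control resting, SH-2251 resting, control restimulated and SH-2251 restimulated arrays, differences of -1.49 ± 0.21 and -1.54 ± 0.21. Cep83 mRNA read 2.46, 2.59, 3.40 and 3.48 and was 0.94 and 0.88 higher. Of the 12 transcripts antisense by name, these were the only ones past 2-fold with restimulation, 1 in each direction. Over all transcripts, 12.9% were past it either way in each restimulation comparison. Of the 12, 9 were below 0 under both treatments, and the share of all transcripts below 0 was not counted.

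These pairs prompted a count, made after their values were seen, of noncoding transcripts with a coding gene on the opposite strand whose start lay within 1000 bases. Of the 116 transcripts with a start in the promoter table and no coding transcript of their own, 42 had such a gene, and for 38 the coding mRNA was above background on all 4 arrays. The transcript and its coding partner had the same sign in 20 of 38 pairs with restimulation of control cells and in 23 with restimulation of SH-2251 cells, and in 18 and 20 pairs with SH-2251 in resting and restimulated cells. Across the pairs r was 0.35, 0.31, 0.39 and 0.25 in the same order, all values of each pair sharing the arrays. With restimulation of control cells, 7 of the 38 transcripts and 4 of the coding genes were past 2-fold, beside 12.9% of all transcripts. Map2k3os was the only pair past it on both sides in the same direction.

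**Figure D5:**
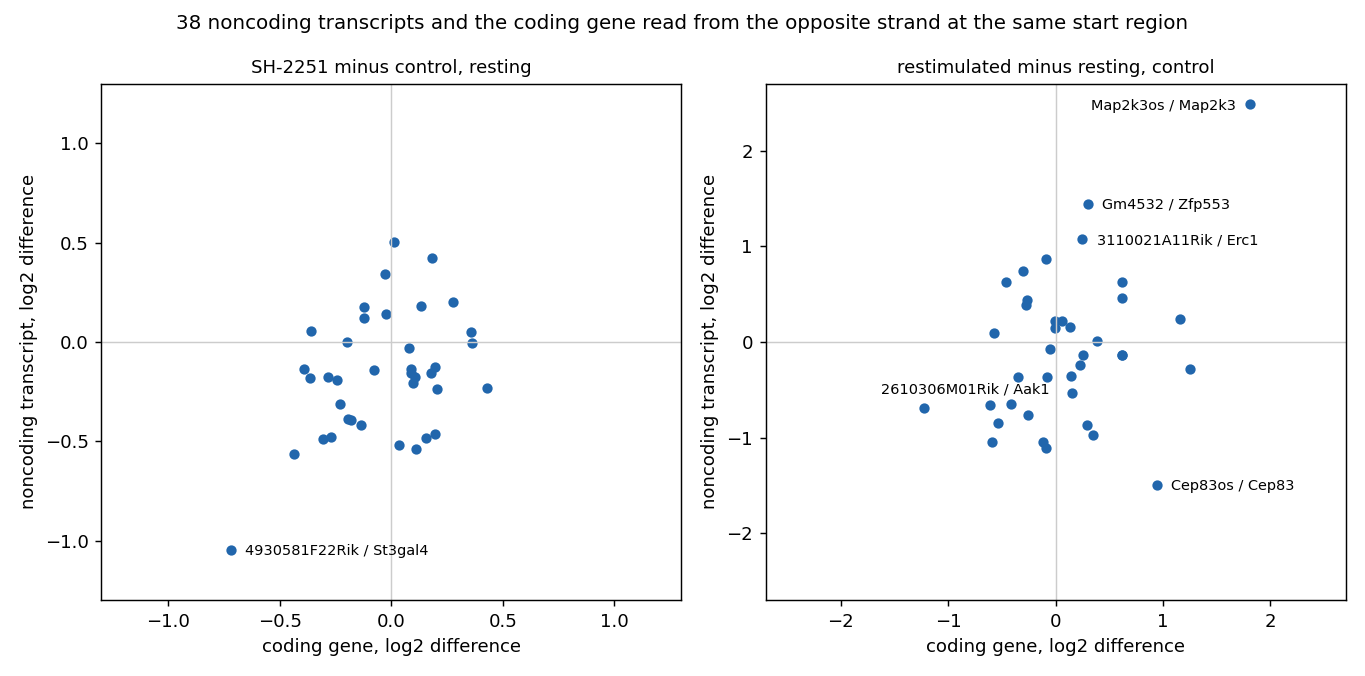
Log2 difference of 38 noncoding transcripts (vertical axis) against that of the coding gene that starts within 1000 bases on the opposite strand (horizontal axis), for SH-2251 in resting cells on the left and restimulation of control cells on the right. 4930581F22Rik and St3gal4 are lowest together on the left, and on the right Map2k3os and Map2k3 are both high while Cep83os and Cep83 lie on opposite sides of 0.

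Among all transcripts whose gene overlaps a coding gene of the table on either strand, 56 had a measured partner, and r between the pair was 0.42 for SH-2251 in each state and 0.16 and 0.20 for restimulation of control and SH-2251 cells. For the 100 transcripts with no overlap, r with the nearest measured coding gene lay between 0.14 and 0.15 in the 4 comparisons. All values of each pair come from the same arrays.

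Of the other transcripts higher after restimulation under both treatments, Speer6-ps1 had the largest difference, 2.68 ± 0.23 in control and 2.68 ± 0.30 in SH-2251 cells, with the array values given above. With normexp background correction these were 1.89 and 0.41, the latter below 2-fold. NR_033578 read 4.48 and 4.42 in resting and 6.48 and 6.45 in restimulated cells, differences of 2.01 ± 0.20 and 2.04 ± 0.20, and NR_002840 read 1.57, 1.24, 2.69 and 2.64, differences of 1.11 ± 0.20 and 1.39 ± 0.20. Zfp862-ps, a zinc finger pseudogene, read -1.46, -0.63, 0.17 and 0.88 and was 1.64 ± 0.21 and 1.51 ± 0.20 higher. It was also higher with SH-2251, by 0.83 ± 0.21 and 0.71 ± 0.20. D030028A08Rik, which overlaps Sp2, was 1.71 ± 0.24 and 1.498 ± 0.26 higher, and Gm4532, which overlaps Zfp553 and Septin1, was 1.44 ± 0.27 and 1.63 ± 0.25 higher, while none of these 3 mRNAs reached 2-fold. The D030028A08Rik value in SH-2251 cells was -0.12 with normexp background correction, and that of Gm4532 was 0.11.

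Of the transcripts lower under both treatments, the lncRNA 2610035D17Rik had the largest difference in control cells. It read 0.26 and 0.09 in resting and -1.40 and -1.23 in restimulated cells, so both restimulated values lay below both resting ones, by -1.66 ± 0.21 and -1.32 ± 0.21. 9230114K14Rik read -1.64, -0.94, -2.99 and -2.65 and differed by -1.36 ± 0.23 and -1.70 ± 0.22. Its weakest value in control cells among the 10 alternatives run was -0.74. AI854703, a transcribed pseudogene, read 0.91, 0.09, -0.27 and -1.03, lower by -1.18 ± 0.20 and -1.12 ± 0.21 with restimulation and by -0.81 ± 0.20 and -0.75 ± 0.21 with SH-2251. Its restimulation difference in SH-2251 cells was -0.87 in the weakest alternative.

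The other 4 lower transcripts besides these and Cep83os were 4933404O12Rik (-1.47 ± 0.21 and -1.36 ± 0.22), BC064078 (-1.38 ± 0.23 and -1.08 ± 0.23), 4930520O04Rik (-1.14 ± 0.26 and -1.33 ± 0.24) and R74862 (-1.11 ± 0.29 and -1.11 ± 0.29). Across the 10 alternatives run, the weakest values were -1.02 and -0.98 for 4933404O12Rik and -0.83 and -0.64 for BC064078. They were -0.54 and -0.79 for 4930520O04Rik and -0.37 and -0.50 for R74862. R74862 starts 936 bases from Cd81 on the opposite strand, and the genes read towards each other and overlap. Cd81 mRNA, which encodes a tetraspanin, differed by -0.09 and -0.05. Flicr, a lncRNA of the Foxp3 locus that was picked after its values were seen, differed by -1.04 in control and -0.92 in SH-2251 cells.

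The 58 pseudogene transcripts included 1 lower and 3 higher with restimulation of control cells (6.09% and 6.78% of all transcripts) and 3 lower and 2 higher with restimulation of SH-2251 cells (5.81% and 7.13%). Of the 125 transcripts named by a clone or a prediction, 9 read at least 2-fold below and 5 above their resting value on the control arrays, against 8 and 5 on the SH-2251 arrays, which stand beside the same shares of all transcripts. With SH-2251, 83 of these 125 were below 0 in resting and 85 in restimulated cells, with medians of -0.12 and -0.15, beside -0.04 and -0.04 over all transcripts. The 10 transcripts of genes that also code for protein had none past 2-fold in any of the 4 comparisons. Over all transcripts, 3.43% and 3.65% were past it with SH-2251 in resting and restimulated cells, and 12.9% in each restimulation comparison.

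The short motifs fixed for this purpose were searched on both strands in the promoters (250 bases before to 50 after the start) of the 38 named genes that the RefSeq table holds. AP-1 was searched as TGANTCA and occurs in 7.81% of all 32851 promoters. The CRE, TGACGTCA, occurs in 1.79% of them. The E-box, CACGTG, occurs in 7.15% and the Sp letters, GGGCGG, in 35.7% of all promoters. NFAT, searched as GGAAAA, occurs in 23.4% and GATA, searched as AGATAA, in 11.2%. The core of Gfi1 sites, AAATCA, occurs in 14% and the TATA letters, TATAAA, in 13.6%. Of the 6 snoRNA host genes, 3 held Sp letters, 2 NFAT and 3 TATA, and none held the other 5 motifs in this window. The E030011O05Rik promoter held 1 Sp match, 50 bases before the start, and that of Map2k3os held 4. A match is a description of letters only.

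Another 57 noncoding transcripts were above background on 1 to 3 arrays, and 245 on none. At the threshold, 5033406O09Rik, NR_001592 and 4930515G01Rik were just inside with lowest values of -4.66, -4.65 and -4.65, and Gm11346, C030034L19Rik and Gm4013 were outside with 1 array not above background, at -4.48, -5.74 and -4.57. Among the 57 was Speer4cos, of the same gene family as Speer6-ps1, which read -4.38 and -2.62 in control cells and was not above background at -5.02 and -4.86 in SH-2251 cells. Its bound was at least 4.33-fold lower with SH-2251 in restimulated cells and at least 1.21-fold lower in resting cells. Speer5-ps1 and Speer8-ps1 were also among the 57 and fell short of 2-fold. In restimulated cells Speer5-ps1 was 1.86-fold lower with SH-2251, and Speer8-ps1 was lower by at least 1.26-fold.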

How the data were processed

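Total RNA of 4 Th2 cell samples (1 per condition) was labelled with Cy3 and hybridised to Agilent mouse arrays. The deposited scanner files, made by the authors with Feature Extraction 10.7 (10.7.3.1 in the file header), hold processed intensities, from which the software had subtracted background. The authors' deposited log2 values equalled the log2 intensity minus the 75th percentile of the array, since over 99% of probes lay within 0.01 of a constant, and their scale, centring and direction are thereby known. Here log2 intensities were scaled in that same way with Python 3.11.15, pandas 2.3.3 and numpy 2.4.6, and drawn with matplotlib 3.10.9. Control and outlier spots were left out and a probe had to be well above background on all 4 arrays. R 4.3.3 with limma 3.58.1 gave the normexp alternatives, and the quantile alternative was made in Python. Technical SDs come from the scanner software's error of the processed signal, and precision is limited by the number of arrays.

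With 1 array per group, no test was made, and nothing gives variation between animals or cultures. Named transcripts were those of the gene lists, up to 10 in each direction changed 2-fold alike in both states or under both treatments, up to 5 in each direction for SH-2251 in 1 state, and the 5 with the largest difference between states in each direction. The members and lists were chosen with earlier results of these data known. The analysis of divergent starts, the start region windows and the limit on mean log2 signal (above -3) were chosen after seeing the data. The scripts were tested on simulated data. Alternatives covered the background correction, scaling, centring, the filter, the fold, the probe and the authors' values. No per-sample column was left unused (0). Transcript and probe sequences were not used here.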

Additional observations from a re-analysis of the deposited data

Results flagged for a closer look

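The SH-2251 difference of 4921531C22Rik was 0.42 in resting and -0.64 in restimulated cells, opposite in sign, so that the difference between the states was -1.07. The difference was not tested, since each condition had 1 array.

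Signal was also seen in transcripts outside the 230. Of the 57 detected on some arrays, 39 had an SH-2251 value or bound in resting cells, 2 at least 2-fold lower and 2 higher. In restimulated cells 32 had a value or bound, with 3 lower and 1 higher. The matching shares of all transcripts were not counted. Only the higher ones are named here, where the control array was not well above background and the SH-2251 array was. In resting cells 5031425F14Rik was higher with SH-2251 by at least 1.02 on the log2 scale and E230016K23Rik by at least 1.49. In restimulated cells Gm16982 was higher with SH-2251 by at least 1.66. Each of these transcripts was above background on that SH-2251 array and on no other, so the way of choosing them fixed the direction. On the SH-2251 array of the other state, 5031425F14Rik read -7.01, E230016K23Rik -6.28 and Gm16982 -6.85. For each bound the control side was taken as the lowest signal that any detected probe gave on that array, or the probe's own signal if that was brighter, and none was tested.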

How the results depend on the processing

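The numbers of changed transcripts depended mostly on the fold, the filter and the background correction. They are given as SH-2251 in resting cells, SH-2251 in restimulated cells, restimulation of control cells, restimulation of SH-2251 cells, SH-2251 alike in both states, and the difference between states. The share of all transcripts was counted only at 2-fold with the processing used above, so none stands beside the counts below. At 1.5-fold they were 23, 30, 77, 70, 14 and 11, and at 3-fold 1, 1, 7, 7, 1 and 0. Without a filter on dim probes they were 46, 45, 68, 78, 7 and 66. With normexp they were 6 (0 lower and 6 higher), 1, 13, 47, 0 and 30, and without uneven or outlier spots as well 1, 1, 13, 14, 1 and 0. When detection on 1 array of a pair sufficed, with bounds for the dim side, SH-2251 changed 9 in resting and 8 in restimulated cells, and the difference between states has no value. Keeping transcripts with mean log2 signal above -3, a limit chosen after seeing the data, left 0 for the difference between states. Under normexp 47 of the 49 named differences of at least 2-fold kept their sign, as did 198 of the other 256. Those of at least 2-fold that turned were Speer6-ps1 with SH-2251 in resting cells to 0.56, and D030028A08Rik with restimulation of SH-2251 cells to -0.12. Normexp on all spots moved the median of all transcripts by -0.17 in the latter comparison. The causes were not tested. Of the 49, 24 stayed past 2-fold under every alternative run. Signal over background limits precision: 5033406O09Rik, with the lowest value kept, had a technical SD of 0.38 in restimulated cells, beside a median of 0.207. No paired analysis was possible because each condition had 1 array and no replicate numbers.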
